A study of Homo sapiens with 6 samples.

Results

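Levels of 7 plasminogen activation and tissue factor genes, PLAU, PLAT, PLAUR, SERPINE2, F3, TFPI and TFPI2, were read from RNA-seq of UM-UC-3 and 5637 cells, which are established human bladder cancer cell lines. They were chosen by gene symbol, 1 row each, out of 50868 genes with values. Cells were infected with lentivirus carrying a control hairpin (sh-NC) or 1 of 2 hairpins against the long noncoding RNA LNMAT1 (sh-LNMAT1#1 or #2, hairpin 1 and hairpin 2 in what follows), and puromycin selection gave stable populations. Each construct was sequenced once in each line, so the 6 libraries hold no repeat of any construct. UM-UC-3 was grown in DMEM and 5637 in RPMI medium, so line and medium cannot be told apart. All groups carry the same hairpin vector and the same selection. The question of the design is which RNAs differ when LNMAT1 is silenced.

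The values are FPKM, fragments scaled to the length of the gene and the depth of the library, so levels may be set side by side between genes. Depth, read from single-exon genes, ranged from 19375000 to 24707000 fragments. In UM-UC-3, LNMAT1, listed as LINC01296, stood at 14.2 FPKM in the control and at 6.20 and 6.70 FPKM with hairpins 1 and 2. In 5637, hairpins 1 and 2 gave 4.70 and 2.14 FPKM, against 11.7 FPKM in the library labelled 5637 sh-NC. Over 12717 genes, the library labelled 5637 sh-NC had a correlation of log2 values of 0.922 to 0.985 with the UM-UC-3 libraries, highest with hairpin 1, and of 0.617 and 0.622 with the 5637 sh-LNMAT1 libraries. Correlation was 0.975 between the 5637 sh-LNMAT1 libraries and 0.923 to 0.969 among the UM-UC-3 libraries. Its summed level of 8 epithelial markers was 26.7 FPKM, against 21.3 to 31.0 FPKM in UM-UC-3 and 753 and 1030 FPKM in the 5637 sh-LNMAT1 libraries. Of these 8 markers, 2 reached a mean of 1 FPKM in UM-UC-3 and all 8 did in the 5637 sh-LNMAT1 libraries. The library is called by its label throughout, and the pooled and between-line comparisons are given also with it left out of the fit. The differences within 5637 have no other control.

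Plasminogen is a circulating precursor that urokinase and tissue-type plasminogen activator cut into plasmin, the protease that dissolves fibrin and can degrade extracellular matrix. Urokinase, first found in urine, is held on the cell surface by its receptor, and serpins block both activators by forming covalent complexes with them. Tissue factor is the membrane protein that binds factor VII and starts the clotting cascade whose product, fibrin, plasmin takes apart, and tissue factor pathway inhibitor blocks that start. The products are therefore a protease pair (PLAU, PLAT), a receptor (PLAUR), a serpin (SERPINE2), an initiator of clotting (F3) and a pair of Kunitz-type inhibitors (TFPI, TFPI2).

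F3 and TFPI, the clotting initiator and its inhibitor, differed between the lines in opposite directions, and the bases before their start sites are shown here for that reason. Sequences are from RefSeq on GRCh38.p14, 5′ to 3′ on the minus strand of each gene, and stop where an exon of the gene begins in GENCODE. F3 is shown over chr1:94541801-94542009, positions -250 to -42 from the annotated start, and TFPI over chr2:187554493-187554685, positions -250 to -58. The TFPI stretch lies inside the span of the gene as the deposited table gives it. Capitals mark the AP-1 motif (TGANTCA) and the GC box (GGGCGG) on either strand.
F3: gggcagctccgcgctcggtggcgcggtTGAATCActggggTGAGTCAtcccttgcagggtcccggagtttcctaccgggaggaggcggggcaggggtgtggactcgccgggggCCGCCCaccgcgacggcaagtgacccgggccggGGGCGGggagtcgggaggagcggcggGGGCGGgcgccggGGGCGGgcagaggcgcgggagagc
TFPI: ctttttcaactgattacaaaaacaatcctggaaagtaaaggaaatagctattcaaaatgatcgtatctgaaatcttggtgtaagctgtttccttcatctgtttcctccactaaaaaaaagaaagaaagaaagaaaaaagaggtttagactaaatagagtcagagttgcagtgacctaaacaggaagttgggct
In the full 250 bases, F3 held 2 AP-1 motifs, at -223 and -210, 4 GC boxes and, at -28, a TATA box (TATAAA) outside the stretch shown. The TFPI window held none of these letters. Among all 35116 promoter windows of that length, 6.57% held the AP-1 motif, 42.6% the GC box and 10.7% the TATA box, with both strands searched and no overlap between the motif types in F3. AP-1 motifs were also found before PLAUR, at -186, and TFPI2, at -87. GC boxes were found before TFPI2, both starts of SERPINE2 and 1 of 2 starts of PLAU. Such matches describe letters only.

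The order of the 7 genes differed between the lines. In UM-UC-3, PLAU stood highest at 358 ± 174 FPKM (SD, n = 3), followed by PLAUR at 18.4 ± 8.69, TFPI at 16.9 ± 4.93, TFPI2 at 2.23 ± 0.505, F3 at 1.49 ± 0.503, PLAT at 1.33 ± 0.282 and SERPINE2 at 0.4996 ± 0.296 FPKM. These 3 libraries carry different hairpins, so the SD includes any effect of the hairpins. Neighbours whose ranges overlapped were PLAUR and TFPI, TFPI2 and F3, and F3 and PLAT. In the 5637 sh-LNMAT1 libraries PLAU was again highest, at 108 ± 33.2 FPKM (SD, n = 2), but F3 came next at 18.8 ± 7.38, then PLAUR at 14.5 ± 5.78, SERPINE2 at 12.1 ± 0.580, PLAT at 8.19 ± 2.63, TFPI2 at 6.01 ± 3.51 and, last, TFPI at 1.92 ± 0.587 FPKM. There, F3 overlapped PLAUR, PLAUR overlapped SERPINE2 and PLAT overlapped TFPI2, while TFPI lay below every other member. The library labelled 5637 sh-NC had the 7 genes in the order of UM-UC-3.

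**Figure D1:**
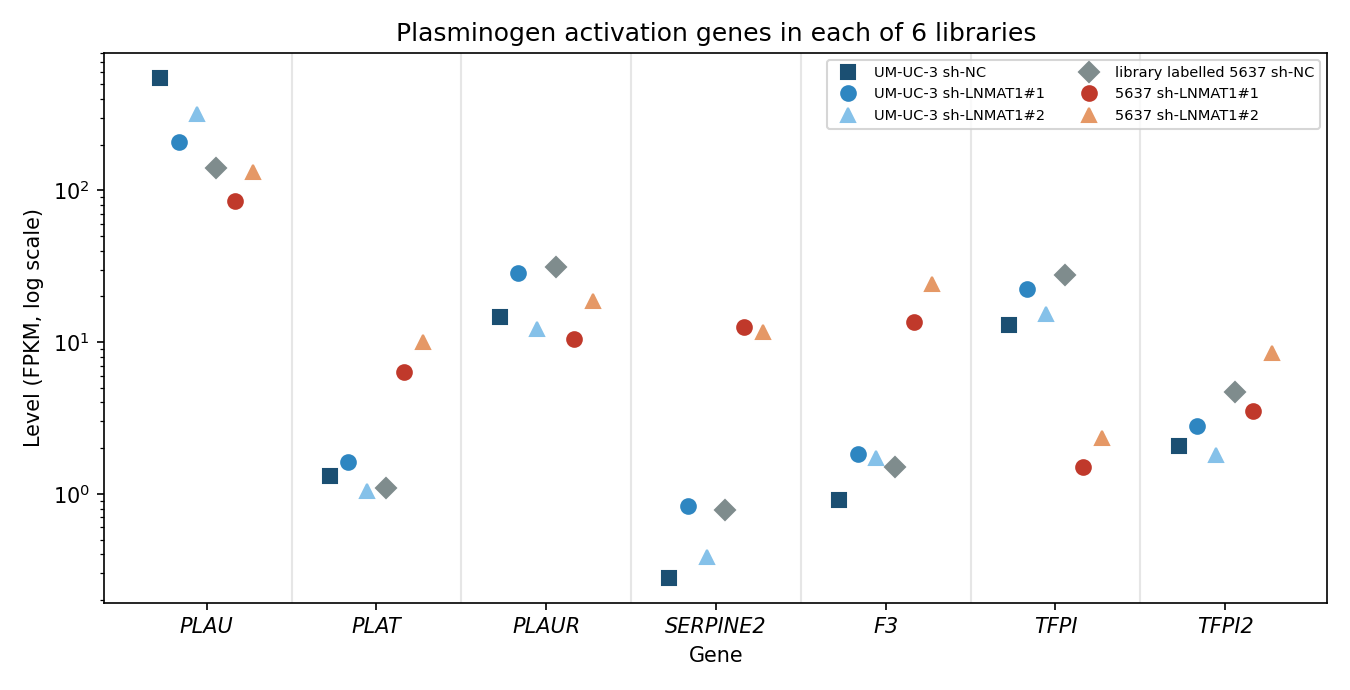
FPKM of the 7 genes in each of the 6 libraries, on a log axis, with 1 point per library. F3, PLAT and SERPINE2 sit higher, and TFPI lower, in the 5637 sh-LNMAT1 libraries than in the other 4 libraries.

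PLAU (ENSG00000122861, chr10:73909177-73917497 on GRCh38, plus strand) encodes urokinase. UM-UC-3 cells had 549 FPKM with the control, 208 FPKM with hairpin 1 and 317 FPKM with hairpin 2. With hairpins 1 and 2, 5637 had 84.5 and 131 FPKM, against 140 FPKM for the library labelled 5637 sh-NC. Each hairpin library was below the sh-NC library of its line, and every UM-UC-3 library was above every library labelled 5637. The gene overlaps C10orf55 on the opposite strand, and whether the counting used strand is not given in the sources used here.

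PLAT (ENSG00000104368, chr8:42175233-42207724, minus strand) encodes tissue-type plasminogen activator. It stood at 1.31, 1.61 and 1.05 FPKM in UM-UC-3 with the control, hairpin 1 and hairpin 2. The library labelled 5637 sh-NC gave 1.10 FPKM, and 5637 gave 6.33 FPKM with hairpin 1 and 10.05 FPKM with hairpin 2. The last pair was above the other 4 libraries, which overlapped.

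PLAUR (ENSG00000011422, chr19:43646095-43670547, minus strand), the urokinase receptor, was measured at 14.7, 28.3 and 12.15 FPKM in UM-UC-3 with the control, hairpin 1 and hairpin 2. Its value was 31.4 FPKM for the library labelled 5637 sh-NC, and 5637 had 10.4 FPKM with hairpin 1 and 18.6 FPKM with hairpin 2. The lines overlapped, and the hairpins lay on either side of the control in UM-UC-3. Within the gene lies RN7SL368P, on the same strand, so reads may be shared between them.

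SERPINE2 (ENSG00000135919, chr2:223975112-224039319, minus strand) encodes protease nexin-1, a serpin that blocks urokinase, tissue-type activator and thrombin. In UM-UC-3 it was low, at 0.281 FPKM with the control, 0.836 FPKM with hairpin 1 and 0.382 FPKM with hairpin 2. The UM-UC-3 sh-NC value stands for between 3.8 and 61.6 fragments, depending on which transcript was counted. Far higher values were found in 5637 with hairpins 1 and 2, 12.5 and 11.7 FPKM, than in the library labelled 5637 sh-NC, 0.778 FPKM. Both 5637 hairpin libraries were above all the others.

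F3 (ENSG00000117525, chr1:94529225-94541800, minus strand) encodes tissue factor. UM-UC-3 gave 0.914 FPKM with the control, 1.84 FPKM with hairpin 1 and 1.715 FPKM with hairpin 2. The library labelled 5637 sh-NC gave 1.505 FPKM, and the 5637 hairpin libraries gave 13.6 and 24.05 FPKM. F3 was higher with each hairpin than with sh-NC in both lines, and the 5637 hairpin libraries stood above the rest.

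TFPI (ENSG00000003436, chr2:187464230-187565760, minus strand) encodes the inhibitor of the tissue factor complex. UM-UC-3 had 12.98 FPKM of it with the control, 22.5 FPKM with hairpin 1 and 15.4 FPKM with hairpin 2. The library labelled 5637 sh-NC had 27.6 FPKM, the highest of the 6, and 5637 with hairpins 1 and 2 had 1.503 and 2.33 FPKM. The 5637 hairpin libraries lay below all the others. An antisense RNA, AC007319.1, overlaps the gene.

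TFPI2 (ENSG00000105825, chr7:93885397-93890991, minus strand) encodes a related Kunitz-type inhibitor that acts on plasmin and other proteases. UM-UC-3 had 2.08, 2.79 and 1.82 FPKM with the control, hairpin 1 and hairpin 2. The library labelled 5637 sh-NC had 4.72 FPKM, and 5637 had 3.52 FPKM with hairpin 1 and 8.49 FPKM with hairpin 2. Every library labelled 5637 was above every UM-UC-3 library, and the hairpins differed from each other in 5637. GNGT1 and AC002076.1 overlap it on the opposite strand.

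Silencing was then compared with the control in each line. Changes are differences of log2(FPKM + 0.5), which understate the change of low genes, and a gene was counted as changed at 2-fold or more in the same direction with both hairpins, provided that its mean in that line reached 1 FPKM. With 1 library per construct there is no replicate check and no test. In UM-UC-3, 6 of the 7 genes were kept, SERPINE2 being too low, and 0 of 6 changed, where 1.44% of the 12025 genes kept did so. PLAU was the nearest on the low side, with log2 differences of -1.40 and -0.79, and F3 on the high side, with 0.73 and 0.65. At 1.5-fold, F3 was counted as higher and PLAU as lower, where 4.39% of genes were higher and 2.4% lower. The hairpins gave opposite signs for PLAT (0.22 and -0.23), PLAUR (0.93 and -0.26) and TFPI2 (0.35 and -0.16), and TFPI was at 0.77 and 0.24. The median difference over the 6 genes was 0.54 with hairpin 1 and -0.19 with hairpin 2, beside -0.004 and 0.02 over all genes kept.

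In 5637, measured against the library labelled sh-NC, 4 of 7 genes changed. PLAT (2.10 and 2.73 on the log2 scale), SERPINE2 (3.35 and 3.25) and F3 (2.82 and 3.62) were higher, a direction in which 18.5% of 12791 genes moved, and TFPI (-3.81 and -3.31) was lower, as were 12.3% of genes. SERPINE2, at 0.778 FPKM in the library labelled 5637 sh-NC, was kept only through the 5637 hairpin libraries. Its direction was therefore fixed by the filter, and its count is a description. PLAU (-0.73 and -0.09), PLAUR (-1.55 and -0.74) and TFPI2 (-0.37 and 0.79) did not meet the rule. Pseudocounts of 0.1 and 1 changed the sizes but none of these calls. These are differences from a library whose epithelial markers, and whose order of the 7 genes, were those of UM-UC-3. Its 6 mesenchymal markers summed to 141 FPKM, beside 159 to 365 FPKM in UM-UC-3 and 136 and 134 FPKM in the 5637 hairpin libraries, but they did not move together. ZEB1 and VIM were at 12.6 and 103 FPKM in it and at no more than 0.0264 and 4.14 FPKM in the 5637 hairpin libraries. FN1 was at 0.884 FPKM in it and at 110 and 102 FPKM in those libraries, where TWIST1 and SNAI2 were also higher. The part of that library in the 4 changes was not tested, and silencing and the library cannot be told apart in 5637. Among the members it lay inside the UM-UC-3 range for PLAT, SERPINE2 and F3, and outside it for PLAU, PLAUR, TFPI and TFPI2.

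**Figure D2:**
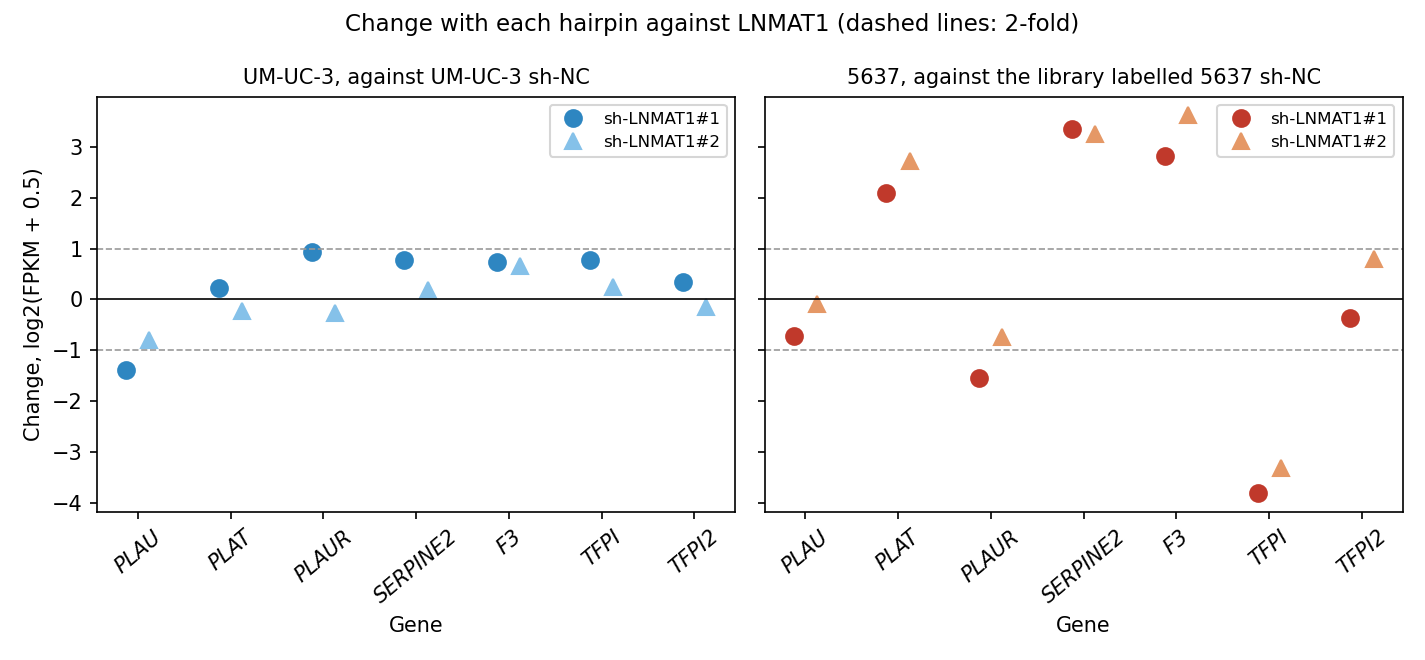
Difference in log2(FPKM + 0.5) of each sh-LNMAT1 library from the sh-NC library of its line, 1 point per hairpin, for the 7 genes. In UM-UC-3 the points lie between -1.40 and 0.93, and in 5637, against the library labelled sh-NC, they run from -3.81 to 3.62.

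A pooled fit with limma set the 4 sh-LNMAT1 libraries against the 2 sh-NC libraries with the line as a covariate. None of the 12717 genes tested passed a Benjamini-Hochberg adjusted p of 0.05 (0%), while 811 had an unadjusted p under 0.05, and F3 and SERPINE2 were among these. F3 had a log2 difference of 1.95 (SE 0.594) and an adjusted p = 0.569, positive in 4 of 4 comparisons, although the hairpins of a line share its control and 2 of the 4 use the library labelled 5637 sh-NC. SERPINE2 was at 1.89 (SE 0.649), also with an adjusted p = 0.569 and positive in 4 of 4. PLAU was at -0.75 (SE 0.334, adjusted p = 0.569), negative in 4 of 4, PLAT at 1.21 (SE 0.577), TFPI at -1.53 (SE 0.879), PLAUR at -0.41 (SE 0.515) and TFPI2 at 0.15 (SE 0.38), none of them called. Without the library labelled 5637 sh-NC, again 0 genes were called, and the differences became 0.69 for F3, 0.48 for SERPINE2 and -1.09 for PLAU, while PLAT (-0.002), PLAUR (0.33) and TFPI (0.50) changed sign. Without UM-UC-3 sh-NC, the fit called F3, PLAT, SERPINE2 and TFPI, among 31% of all genes, and its control was then the library labelled 5637 sh-NC alone.

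The lines themselves were compared with limma over the 4 sh-LNMAT1 libraries, 2 per line with matched hairpins. Neither control library enters the model, but the genes tested were those whose mean over all 6 libraries reached 1 FPKM. Of the 7 genes, 3 were higher in 5637, as were 18.5% of the 12717 genes tested, and 2 were lower, as were 19.1%. SERPINE2 had a log2 difference of 3.54 (SE 0.266, adjusted p = 0.000604), but it was under 1 FPKM in every UM-UC-3 library and entered the fit only through the 5637 libraries, so it had to differ and its call is a description. F3 was 8.18-fold higher in 5637 on the log2(FPKM + 0.5) scale, at 3.03 (SE 0.308, adjusted p = 0.00166), and PLAT 4.69-fold higher, at 2.23 (SE 0.303, adjusted p = 0.00446). TFPI was 8.02-fold lower, at -3.003 (SE 0.291, adjusted p = 0.0014). PLAU was 2.43-fold lower in 5637, at -1.28 (SE 0.319, adjusted p = 0.0291), but its adjusted p rose to 0.253 without 5637 sh-LNMAT1#1, 0.117 without 5637 sh-LNMAT1#2 and 0.101 without UM-UC-3 sh-LNMAT1#2. PLAT likewise reached an adjusted p = 0.0742 without 5637 sh-LNMAT1#2. PLAUR (-0.40, SE 0.474, adjusted p = 0.535) and TFPI2 (1.12, SE 0.43, adjusted p = 0.0939) did not pass the test.

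The median size of the difference between lines, without its sign, was 2.23 on the log2 scale over the 7 genes, SERPINE2 included, and 0.62 over all genes tested. The epithelial markers moved in the same comparison, as given above, and their part in these differences was not tested. When all 6 libraries entered, with the library labelled 5637 sh-NC counted as 5637, 0 of the 7 genes and 1 gene in all were called.

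**Figure D3:**
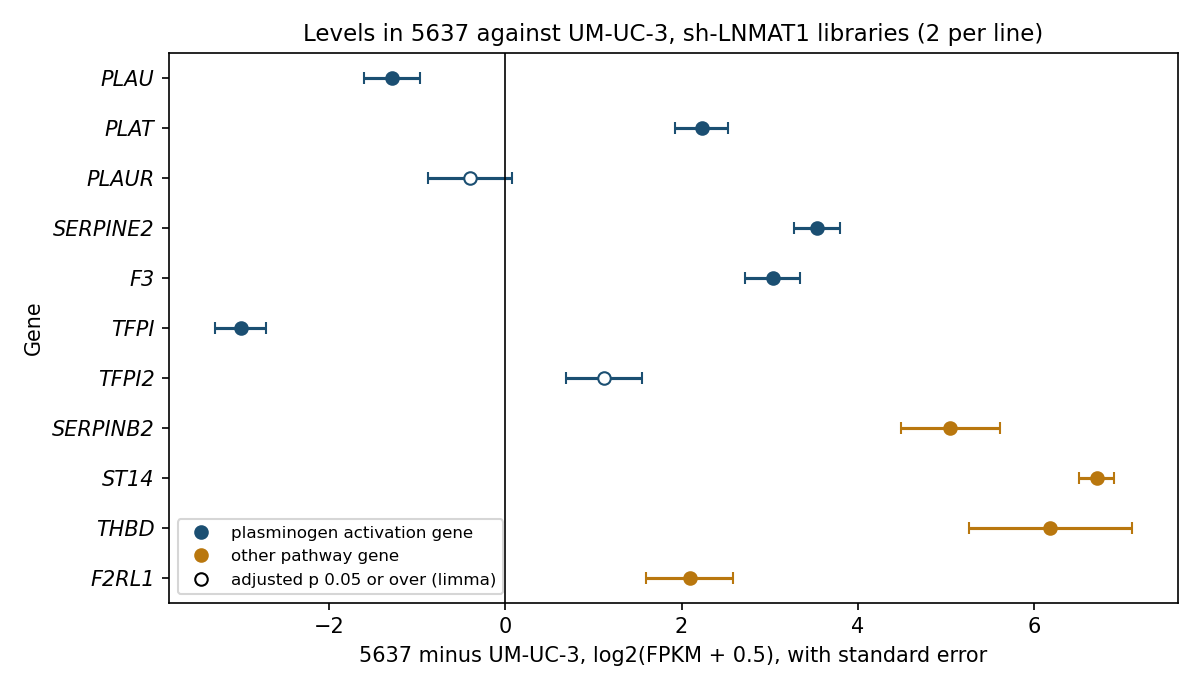
Log2 difference, 5637 minus UM-UC-3, over the 4 sh-LNMAT1 libraries, with bars of 1 standard error from limma, for the 7 genes (blue) and 4 other pathway genes (orange), open points being those not called. SERPINE2, F3 and PLAT lie at 3.54, 3.03 and 2.23, and PLAU and TFPI at -1.28 and -3.003. The filled points of SERPINE2, ST14 and SERPINB2 are a description, since these genes entered the fit only through the 5637 hairpin libraries.

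The levels of opposed products were also set against each other within a library, as ratios of FPKM chosen after the values were seen and given without a test. F3 to TFPI was 0.0704, 0.0820 and 0.111 in UM-UC-3 with the control, hairpin 1 and hairpin 2, 0.0546 in the library labelled 5637 sh-NC, and 9.06 and 10.3 in the 5637 hairpin libraries. Tissue factor RNA was thus below that of its inhibitor in 4 libraries and above it in the other two. PLAU to PLAT was 418, 129 and 302 in UM-UC-3, 128 in the library labelled 5637 sh-NC, and 13.4 and 13.1 in 5637 with the hairpins, so urokinase RNA exceeded that of the tissue-type activator in all 6. The ratio of PLAUR to PLAU was below 1 in all 6, from 0.0267 in UM-UC-3 sh-NC to 0.224 in the library labelled 5637 sh-NC.

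**Figure D4:**
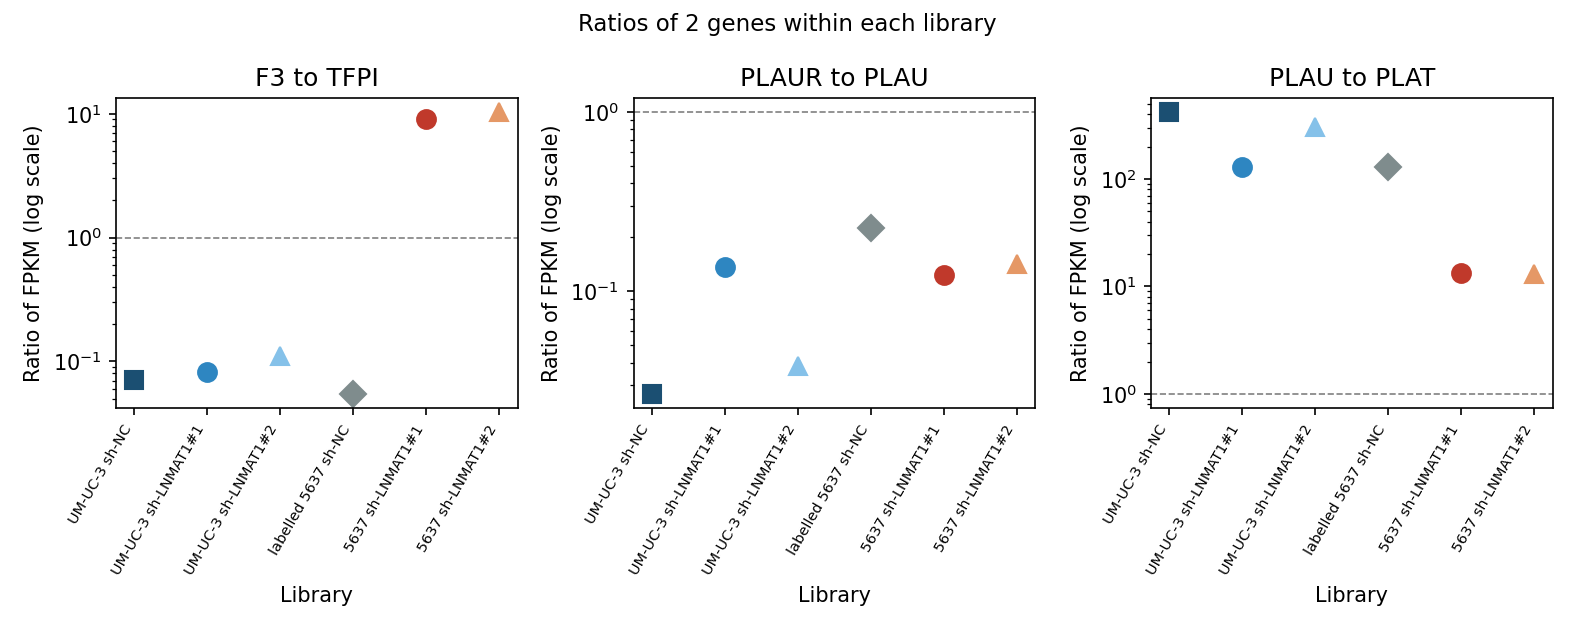
Ratios of FPKM within each library, on a log axis, for F3 to TFPI, PLAUR to PLAU and PLAU to PLAT, with 1 point per library and a dashed line at 1. F3 to TFPI lies at 0.111 or below in the UM-UC-3 libraries and in the library labelled 5637 sh-NC, and at 9.06 and 10.3 in the 5637 sh-LNMAT1 libraries.

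A list of 50 other genes of the plasminogen and coagulation pathways was read for the same comparisons. Of these, 25 stayed under 1 FPKM in all libraries, among them PLG, plasminogen itself, at no more than 0.0150 FPKM, and F7, the ligand of tissue factor, listed at 0 in 5 libraries and at 0.00504 FPKM in UM-UC-3 sh-LNMAT1#2. In UM-UC-3, 22 were kept, of which 0 were higher and 1 lower with both hairpins, where 1.44% of all genes changed in either direction. The lower one was SORL1, a sorting receptor that binds urokinase complexes, at 6.55 FPKM with sh-NC and 2.14 and 2.85 FPKM with the hairpins, and it was no longer counted with a pseudocount of 1 or a filter of 5 FPKM. In 5637, against the library labelled sh-NC, 5 of 24 were higher and 4 lower, where 18.5% and 12.3% of all genes were. The higher ones include ST14 and SERPINB2, kept only through the hairpin libraries. The lower ones include VLDLR and ITGB3, kept only through the library labelled sh-NC. For these genes the filter fixed the direction. Between the lines, 4 of 24 tested were higher in 5637 and 7 lower, where 18.5% and 19.1% of all genes were. The 4 higher between lines include ST14 and SERPINB2, whose directions were fixed by the filter. The 7 lower include ITGB3 and VLDLR, which reached the filter only through libraries other than the 5637 hairpin libraries.

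That list holds 5 genes for plasminogen and the proteases that activate it or its activators, of which 2 were expressed highly enough to test. Of these, 1 was higher in 5637 and 0 lower, where 18.5% and 19.1% of all genes were. The higher one was ST14, whose direction was fixed by the filter. ST14, the membrane protease matriptase, was at most 0.0240 FPKM in UM-UC-3, listed at 0 in the library labelled 5637 sh-NC, and at 49.4 and 56.15 FPKM in 5637 with the hairpins. SERPINB2, a serpin that inhibits urokinase, was at no more than 0.451 FPKM in UM-UC-3, 0.692 FPKM for the library labelled 5637 sh-NC, and 13.5 and 39.9 FPKM in 5637 with the hairpins. ST14 and SERPINB2 reached the filter only through the 5637 hairpin libraries, so they had to differ between the lines and no test is given for them.

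Of 16 binding and clearance receptors, 14 were tested between the lines, and 0 were higher and 7 lower in 5637, where 18.5% and 19.1% of all genes were. The integrin chains ITGA5 (-1.77 on the log2 scale, adjusted p = 0.00547) and ITGB1 (-1.57, adjusted p = 0.0153) were lower. So were the lipoprotein receptor LRP8 (-1.36, adjusted p = 0.0151) and the plasminogen-binding proteins PLGRKT (-1.04, adjusted p = 0.0132) and ENO1 (-0.84, adjusted p = 0.0196). The integrin chain ITGB3 (-2.55) and the lipoprotein receptor VLDLR (-2.61) complete the 7. Both were under 1 FPKM in the 5637 hairpin libraries, at no more than 0.308 and 0.389 FPKM. They reached the filter only through the other libraries, which favours a lower level in 5637 without fixing it. Among those are the sh-NC libraries of 5637 and UM-UC-3, which count in the filter but not in the fit. There VLDLR was at 4.51 and 6.43 FPKM and ITGB3 at 4.03 and 2.00 FPKM. No test is given for these genes. ANXA2 and S100A10, whose products pair on the surface to bind plasminogen and its activators, were not called, at -0.39 (adjusted p = 0.178) and 0.85 (adjusted p = 0.052). ANXA2 ran from 116 to 231 FPKM and S100A10 from 23.7 to 96.6 FPKM over the 6 libraries. LRP1, which clears activators bound to inhibitors, was at 0.50 (adjusted p = 0.191).

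Of 5 coagulation genes and 2 protease-activated receptors tested, 1 of each was higher in 5637 and 0 were lower, where 18.5% and 19.1% of all genes were. THBD, thrombomodulin, the thrombin receptor that starts the anticoagulant protein C pathway, was 0.0197, 3.40 and 0.0742 FPKM in UM-UC-3, 2.56 FPKM for the library labelled 5637 sh-NC, and 74.3 and 158 FPKM in 5637 with the hairpins (6.18, SE 0.923, adjusted p = 0.00603). It differed between the hairpins in UM-UC-3. F2RL1, a receptor that the tissue factor complex can cleave, was 9.71, 16.0 and 6.03 FPKM in UM-UC-3, 7.43 FPKM for the library labelled 5637 sh-NC, and 34.3 and 55.4 FPKM in 5637 with the hairpins (2.09, SE 0.492, adjusted p = 0.0249). PECAM1, VWF, CDH5, TEK, KDR and CLDN5, 6 markers of endothelium, a cell type known for thrombomodulin and TFPI, summed to between 0.104 and 0.326 FPKM in all libraries, with 0 of 6 reaching 1 FPKM.

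The genes whose pattern over the 6 libraries was most like each member were ranked by the Euclidean distance of centred log2 values, as a description. The ranking was made among the 12717 genes tested, less those with a clone-type symbol. The rule for such symbols also drops some ordinary genes, such as those starting with AP and a digit, so a nearer gene may be missed. The nearest were PDGFB (0.234) and CTSC (0.297) for PLAT, JPH1 (0.267) and SNN (0.337) for SERPINE2, RAET1L (0.413) and RASEF (0.523) for F3, and CITED2 (0.368) and MCTP1 (0.443) for TFPI. For PLAU, the nearest was MYBL1 (0.579), for PLAUR PKI55 (0.131) and for TFPI2 SNHG9 (0.48). No member was among the 3 nearest genes of another.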

How the data were processed

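RNA of the 6 libraries was extracted with TRIzol, purified and prepared with a TruSeq stranded mRNA kit, per the labels. The authors deposited FPKM per gene, with Ensembl identifiers and positions, in 1 table of 50869 rows. A single row without values was left out. The submitters' processing notes name HISAT2 and hg38, and the counting program, the annotation and the treatment of reads shared by several genes are not given in the sources used here. No count model was run, since the table holds FPKM and not counts. Of 50868 identifiers, 50110 were found in GENCODE release 29, 47483 with the identical position, and TFPI2 differed there by 1 base at its start.

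Library depth came from genes of a single exon, whose FPKM multiplied by length steps in whole fragments. Bounds on the fragments of a member run from its shortest transcript to all its exons and cover the length used, not counting error. Log2(FPKM + 0.5) was used throughout, with a mean of at least 1 FPKM. Fits used limma 3.58.1 in R 4.3.3 (lmFit, eBayes with a trend) with 3 residual degrees of freedom when pooled and 2 otherwise, and Benjamini-Hochberg adjustment over all 12717 genes. Nothing states that libraries came from separate cultures, so p-values measure only the spread between these libraries. Depth and sequences were read in Python 3.11.15 (pandas 2.3.3, numpy 2.4.6). Scripts were tested on simulated data.

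All 7 members were named, and other pathway genes where they changed at least 2-fold with both hairpins in UM-UC-3, passed the test between lines with a mean of at least 10 FPKM in either line, or were on a short list of well-known members. VLDLR, LRP8 and ITGB3 lie under that limit of 10 FPKM and were named to complete the receptors lower in 5637. An item of the pathway list is not reported here and is left out of its counts. The members and lists were chosen with earlier results of these data known. Alternatives were pseudocounts of 0.1 and 1, no filter, a filter of 5 FPKM, 75th-percentile scaling, limma without a trend, a 1.5-fold limit, each hairpin alone, a hairpin block and leaving out each library. Promoter windows were found for 6 of the 7 members, PLAT not being shown. Endothelial, fibroblast, leukocyte, epithelial and mesenchymal markers were summed. Fibroblast markers reached at most 8.37 FPKM, mesenchymal markers ran from 134 to 365 FPKM, and leukocyte markers from 1.24 to 31.2 FPKM, with CD3E at 0 in all. The higher leukocyte sums were nearly all CD68, at 13 to 31 FPKM in UM-UC-3 and the library labelled 5637 sh-NC. PTPRC was at no more than 0.0108 FPKM in any library.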

Additional observations from a re-analysis of the deposited data

Results flagged for a closer look

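In limma over 6 libraries, with 2 residual degrees of freedom, the interaction of line and silencing passed the test for 4 of the 7 genes and for 18.8% of the 12717 genes tested. With 1 control library per line, the spread in this fit comes from the hairpin pairs alone and takes none from the controls. The difference, 5637 minus UM-UC-3, was 2.41 for PLAT (SE 0.533, adjusted p = 0.0352), 2.82 for SERPINE2 (SE 0.469, adjusted p = 0.0167), 2.53 for F3 (SE 0.544, adjusted p = 0.033) and -4.06 for TFPI (SE 0.503, adjusted p = 0.00712). SERPINE2 was under 1 FPKM in UM-UC-3 and in the library labelled 5637 sh-NC. It entered the fit only through the 5637 hairpin libraries, so its change had to be larger in 5637 and its call is a description. PLAU (0.68), PLAUR (-1.48) and TFPI2 (0.11) were not called. The control for 5637 in all 4 is the library labelled sh-NC, so silencing and that library cannot be told apart in them. The fit cannot be made without it.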

How the results depend on the processing

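The 4 members changed in 5637 were also counted under every pseudocount, filter, scaling, 1.5-fold limit and single hairpin tried, PLAUR being added at 1.5-fold and with hairpin 1 alone. In UM-UC-3, 2 members were counted at 1.5-fold and 1 with hairpin 1 alone, against 0, and the pathway count of 1 became 0 with a pseudocount of 1 or a filter of 5 FPKM and 3 with hairpin 1 alone. Between lines, the 5 members called became 1 with no filter, 3 with a filter of 5 FPKM and 0 with all 6 libraries, and the 11 pathway genes became 6 with no filter. The share of all genes called moved too. It was 5.83% with no filter, 35% with a filter of 5 FPKM and 0.00786% with all 6 libraries. In the main fit, 18.5% were higher and 19.1% lower. The interaction called 0 members with no filter and 2 with the 5 FPKM filter, where fewer members are tested. Of all genes, it called 6.84% and 14.1% under these settings. Pooled calls ran from 0 to 4 over the libraries left out. The pooled difference then ran from -0.002 to 2.41 for PLAT, -1.14 to 0.33 for PLAUR, -3.56 to 0.50 for TFPI and -0.10 to 0.39 for TFPI2. PLAUR between lines ran from -0.997 to 0.19 over the libraries left out and was 0.088 with 6 libraries. Of single-gene values under one alternative each, 13 differences between lines and 4 interactions lost their call, 4 pooled differences gained one, and 9 changes in a line moved in size. Where not stated, the cause was not tested.

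Hairpin numbers are shared by the lines, and with 2 pairs of constructs they pair no cultures. With the hairpin number as a replicate block, 5 members and 12 pathway genes were called between lines, as were 40.3% of all genes. No member's call changed. Low values limit SERPINE2, F3 and PLAT in UM-UC-3 and TFPI in 5637.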
